A study of Homo sapiens with 8 samples.

Results

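The centromeric arrays of chromosomes 2 and 20 were compared for the binding of CENP-B in control and ERCC6L2-/- U2OS cells. Every 1 kb window of the chromosomes, counted from position 1, was taken as a member when at least 1 of its bases had coverage in either group. This gave 3977 of the 35604 covered windows of the series, or 11.2%, with 1987 on chromosome 2 and 1990 on chromosome 20. On chromosome 2, 1956 windows formed the main array, chr2:92188166-94513102 in GRCh38, and the other 31 formed a separate site at chr2:89811398-89841196. On chromosome 20, all 1990 windows belonged to 1 array, chr20:26436249-28499333. No member window overlapped an annotated gene of GENCODE release 44.

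CENP-B is a DNA-binding protein of the centromere that recognises the CENP-B box, a short motif present in a part of the α-satellite repeat units. These units, or monomers, stand head to tail, and blocks of several unlike monomers are copied many times over as higher-order repeats, so that the arrays of related chromosomes can differ in detail while sharing much of their sequence. In GRCh38 the centromeric arrays are modelled sequences, so a position inside an array stands for a kind of repeat rather than a fixed place in the cells, and the long arm of chromosome 2 also keeps the remnant of an ancestral centromere from the fusion that formed the chromosome.

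The cells were U2OS, a human osteosarcoma line, either wild type (control) or ERCC6L2-/- after CRISPR-mediated disruption of ERCC6L2, which encodes a SNF2-family ATPase, and neither group received a treatment. The clone behind the ERCC6L2-/- libraries is not given in the sources used here. Chromatin was digested with micrococcal nuclease and immunoprecipitated with an antibody against CENP-B, 3 times in each group. The values give 1 pooled number of reads per base and group inside regions that the authors called in that group, so there was no replicate error, no test could be made, and every difference given here is a description. A base that is not listed lay outside a group's regions, so its read depth is unknown and "no coverage" means no listed coverage. The depth of the libraries is unknown, and the coverage of ERCC6L2-/- cells summed over all sequences was 46.1% of that of control cells.

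The repeat units that carry the box are shown first, because they show how closely the arrays are related. Each is 171 bases long, read 5′ to 3′ on the plus strand of GRCh38 unless stated otherwise, with the 15 bases of the box in capitals. The box was searched as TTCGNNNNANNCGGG on both strands. The first sequence is the commonest box-bearing monomer of the chromosome 2 array at chr2:92211814-92211984, the second that of the chromosome 20 array at chr20:26610917-26611087, and the third the commonest monomer around the second box sequence of chromosome 20 at chr20:26637495-26637665.
Chromosome 2, commonest monomer: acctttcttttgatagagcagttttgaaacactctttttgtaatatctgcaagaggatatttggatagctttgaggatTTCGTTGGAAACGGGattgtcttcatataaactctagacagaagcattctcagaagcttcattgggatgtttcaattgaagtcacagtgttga
Chromosome 20, commonest monomer: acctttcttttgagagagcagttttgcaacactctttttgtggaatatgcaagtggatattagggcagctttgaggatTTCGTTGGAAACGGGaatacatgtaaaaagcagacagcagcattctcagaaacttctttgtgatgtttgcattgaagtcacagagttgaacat
Chromosome 20, monomer with the second box: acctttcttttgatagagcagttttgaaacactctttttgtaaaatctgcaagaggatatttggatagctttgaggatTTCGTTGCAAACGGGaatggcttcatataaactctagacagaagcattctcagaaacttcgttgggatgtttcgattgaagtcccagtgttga
The commonest monomers were 84.2% identical over 171 alignment columns, of which 4 were gaps. The monomer with the second box was 95.3% identical to the commonest monomer of chromosome 2 and 84.8% identical to that of its own array. On chromosome 2, 241 exact copies of the commonest monomer were found among 2938 distinct box-bearing monomers, and on chromosome 20, 461 copies among 1202. Neither was found on the other array, and 6 distinct box-bearing monomers were present on both.

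The arrays therefore shared the kind of repeat unit but seldom its exact sequence. The longest stretch of the chromosome 2 array matched itself best at a shift of 680 bases, where 57.9% of bases were identical, and next at 171 bases, where 55.9% were. On chromosome 20 the stretch chr20:26599439-27500496 matched itself best at 171 bases, with 56.5% identity, then at 680 bases with 54.6% and at 2719 bases with 51.2%. At a shift of 2719 bases the chromosome 2 stretch was 32.7% identical to itself, so the longer period was weak there. The first stretch of the chromosome 20 array, chr20:26436249-26590862, differed from the rest of its array in matching itself best at 680 bases, with 68.0% identity, and next at 1360 bases.

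The box itself was also shared. The chromosome 2 array held 5444 boxes, of which 5321, or 97.7%, had the sequence TTCGTTGGAAACGGG. The chromosome 20 array held 5129 boxes, of which 4542, or 88.6%, had that sequence and 556, or 10.8%, had TTCGTTGCAAACGGG. The second sequence differs from the first by G8C, counted from 1 at the 5′ end of the box with the base of the commonest box first. On chromosome 2 the next commonest boxes carried G7T, T5A, T5C and T5G, at 27, 15, 14 and 10 sites. The median distance between neighbouring boxes was 341 bases on both arrays, close to the length of a pair of monomers.

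The arrays differed in how their coverage changed between the groups. On chromosome 2 the covered length was nearly the same in both groups while the depth was lower in ERCC6L2-/- cells. On chromosome 20 most of the array had no coverage in ERCC6L2-/- cells, and the rest was also lower in depth. These depths are as deposited, and dividing each group by its total coverage raised every log2 ratio of depth and of summed coverage by 1.12 and left covered length as it was, which turned the chromosome 2 ratios of depth and of summed coverage from negative to positive and left the chromosome 20 sum negative.

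On chromosome 2, 1943834 bases of the main array carried coverage in control cells and 1875832 in ERCC6L2-/- cells, which is 96.5% of the control length (log2 ratio −0.05). Their mean depth was 141 reads in control cells against 94.2 reads in ERCC6L2-/- cells, and the medians were 96 and 62 reads. At the 1873328 bases shared by the groups, the means were 141.3 and 94.3 reads, a ratio of 0.667 and a log2 ratio of −0.58. Length was thus retained and depth was lower by about the same factor as the sum, whose log2 ratio was −0.63. With ERCC6L2-/- values divided by the median ratio of the windows of all other sequences, 0.637, the log2 ratios became 0.07 for the depth and 0.02 for the sum, so the fall in depth was close to that of the other sequences.

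On chromosome 20, 1981521 bases carried coverage in control cells and 786383 in ERCC6L2-/- cells, which is 39.7% of the control length (log2 ratio −1.33). Their mean depth was 226 reads in control cells against 151 reads in ERCC6L2-/- cells, and the medians were 122 and 73 reads. At the 786150 bases shared by the groups, the means were 327 and 151 reads, a ratio of 0.460 and a log2 ratio of −1.12. The summed coverage had a log2 ratio of −1.92, so that both the length and the depth entered it. Scaling to total coverage brought the depth ratio to 0.00 on the log2 scale and the sum to −0.80. Scaling to the other sequences brought them to −0.50 and −1.30. The divisor of the latter is a median over windows (log2 −0.62), while the ratios it divides are of sums over bases. The deepest windows weigh on such sums. As a median over windows, the log2 ratio of chromosome 20 was −0.85.

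**Figure D1:**
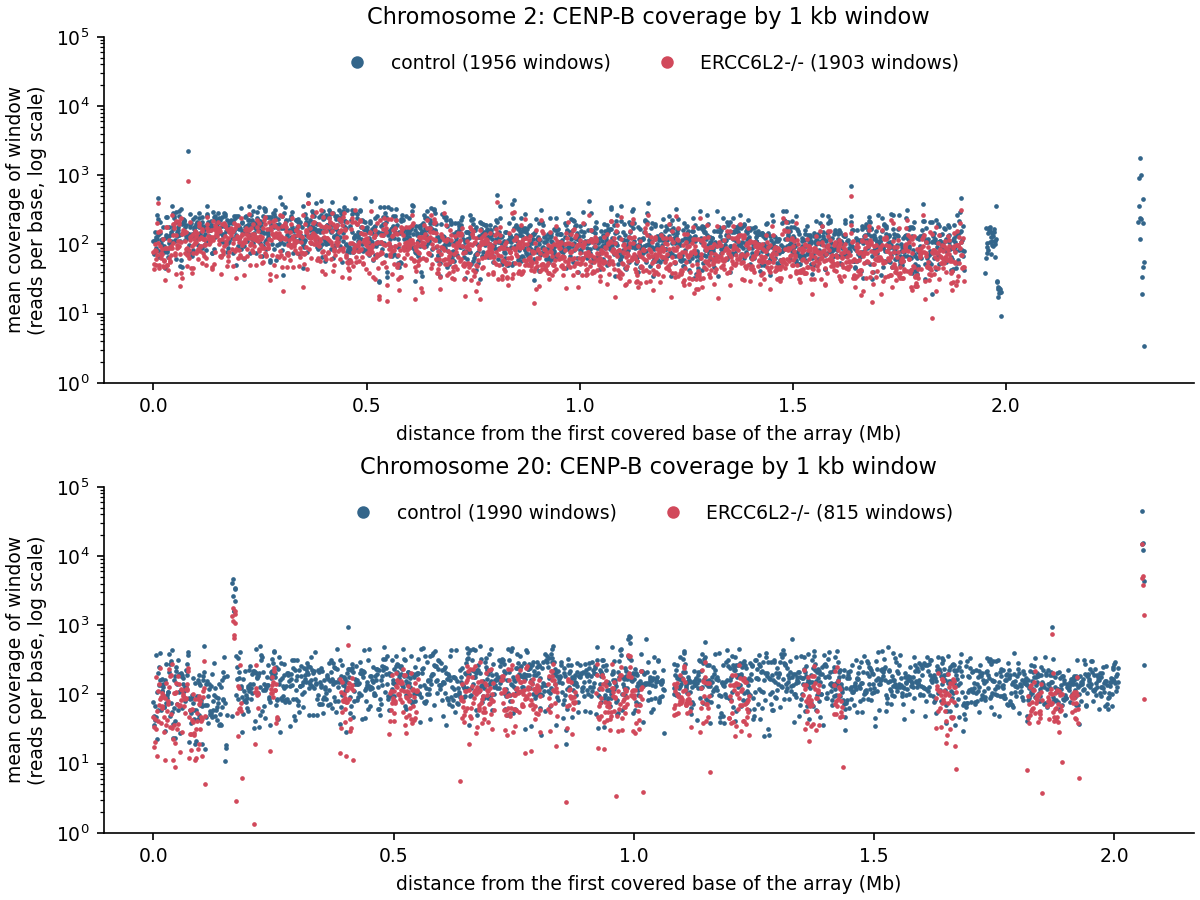
Mean reads per base of each 1 kb window (log axis) against position along the main arrays of chromosomes 2 and 20, for control and ERCC6L2-/- cells. ERCC6L2-/- coverage runs through the long stretch of chromosome 2 below the control, and is broken into 24 stretches on chromosome 20.

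Window by window, the coverage of chromosome 2 was lower nearly everywhere by a similar factor. A window counted as low when its mean coverage plus 1 read was under 0.5 of the control value, and 81 of the 1987 windows, or 4.08%, were low, against 44.6% of the windows of all sequences. On chromosome 20 this held for 1346 of 1990 windows, or 67.6%. No window of either main array had a ratio over 2, against 0.424% of all windows, and all 31 windows of the separate chromosome 2 site did.

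Most of the low windows had no covered base at all in ERCC6L2-/- cells. This was so for 53 windows of chromosome 2, or 2.67%, and for 1175 of chromosome 20, or 59.0%, against 40.3% of all windows. Of the other windows of the main arrays, 1902 on chromosome 2 and 791 on chromosome 20 were covered over at least 50% of their bases in both groups, 1 and 24 lay between, and 28 and 149 of those covered in both were low. In these windows the median log2 ratio was −0.60 on chromosome 2, with 90% of windows between −0.88 and −0.39, and −0.85 on chromosome 20, with 90% between −1.20 and −0.65. The whole ranges, −1.43 to −0.23 and −2.23 to −0.35, overlapped. Across these windows the control and ERCC6L2-/- depths kept nearly the same order, with Spearman's rho of 0.98 on both arrays (n = 1902 and 791 windows, which share libraries and repeat sequence).

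**Figure D2:**
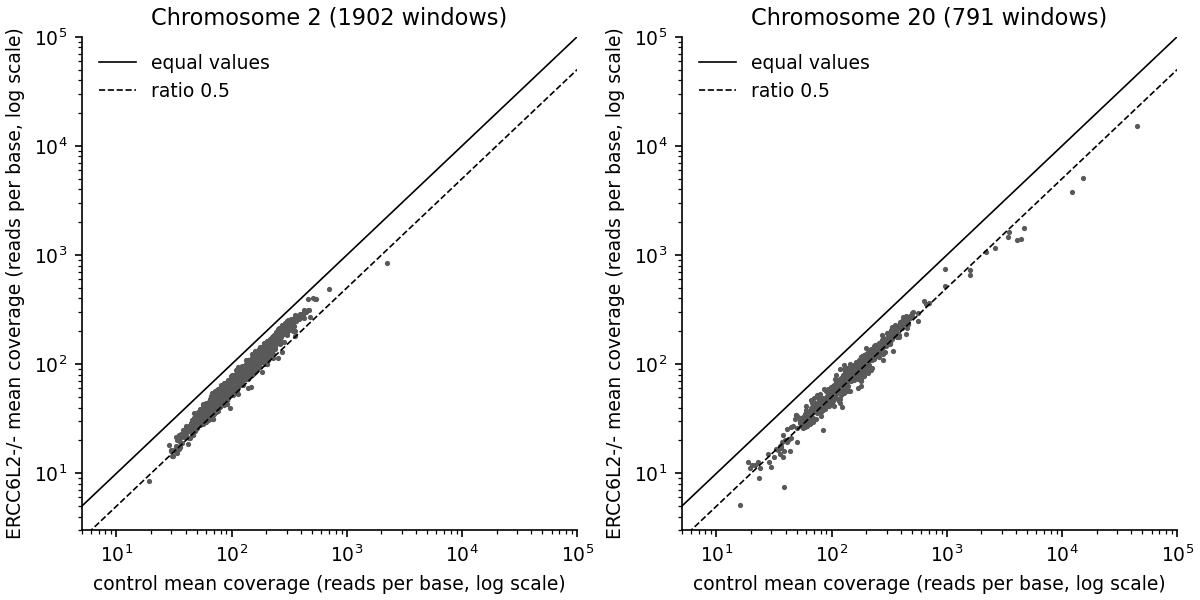
Mean reads per base of ERCC6L2-/- cells against control cells (both log axes) for the windows covered over at least 50% of their bases in both groups, 1902 on chromosome 2 and 791 on chromosome 20. Points follow the diagonal at a lower level, with median log2 ratios of −0.60 and −0.85.

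The extremes showed how wide the range of depth was, and the ratios named here are those of the windows covered over at least 50% of their bases in both groups. The window chr20:28495001-28496000 had the highest mean of either array, 44823 reads in control cells against 15111 reads in ERCC6L2-/- cells, with a log2 ratio of −1.57. On chromosome 2 the highest was chr2:92270001-92271000 with 2252 and 837 reads, whose log2 ratio of −1.43 was also the lowest among the 1902 such windows. The next lowest of these on chromosome 2 was chr2:93351001-93352000, with 97.4 and 39.7 reads, and the highest ratio there was that of chr2:92199001-92200000, with 465 and 396 reads. Among the 791 such windows of chromosome 20 the lowest ratio was found at chr20:27594001-27595000, with 38.9 and 7.50 reads, and the highest at chr20:28308001-28309000, with 957 and 748 reads. Across these windows Spearman's rho of the control depth with the ratio was 0.39 on chromosome 2 and 0.09 on chromosome 20, so that deeper windows of chromosome 2 tended to keep more of their depth, although its deepest window had the lowest ratio.

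Coverage along chromosome 2 lay mostly in 1 long stretch that was nearly unbroken in both groups. The longest covered stretch, joined across gaps of up to 1 kb, was chr2:92188166-94090512 in control and chr2:92188166-94090402 in ERCC6L2-/- cells, so its ends differed by little. When the main array was divided into 10 parts of equal length, the control mean was 177 and 182 reads in the first and second parts and 115 and 116 reads in the seventh and eighth, while the log2 ratio of depth lay between −0.52 and −0.58 in the first 3 parts and between −0.59 and −0.62 in the fourth to the ninth. The deeper first parts thus had slightly higher ratios than the later ones. Control coverage took in 34.0% of the ninth part and 5.94% of the tenth, where its mean was 408 reads. Within this stretch control coverage took in 1893067 bases and ERCC6L2-/- coverage 1875832, and the bases covered only in control had a mean of 2.12 reads.

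The remaining length of the chromosome 2 array lay in a pair of control-only blocks beyond the long stretch. The first, chr2:94140617-94177565, had 36946 covered bases with a mean of 99.03, a median of 68 and a highest value of 1234 reads, and held 67 boxes, or 18.1 per 10 kb. The second, chr2:94499282-94513102, had 13821 covered bases with a mean of 408 and a median of 59 reads, and its highest value was 12289 reads. It held 12 boxes, or 8.68 per 10 kb, all on the minus strand, whereas every box of the long stretch and of the first block was on the plus strand. Both blocks had fewer boxes than the 28.1 per 10 kb of the long stretch. The gene nearest to the first block was the long non-coding RNA ENSG00000291142, 16094 bases after it.

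The monomers of these blocks are shown because they come from the same chromosome but lie close to either array in sequence. The first box-bearing monomer of the first block is at chr2:94140900-94141070 and that of the second at chr2:94499713-94499883, the latter read on the minus strand. The box is again in capitals.
First control-only block: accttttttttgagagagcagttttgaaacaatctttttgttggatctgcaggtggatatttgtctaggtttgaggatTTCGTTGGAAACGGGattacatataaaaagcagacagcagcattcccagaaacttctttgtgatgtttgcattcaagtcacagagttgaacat
Second control-only block: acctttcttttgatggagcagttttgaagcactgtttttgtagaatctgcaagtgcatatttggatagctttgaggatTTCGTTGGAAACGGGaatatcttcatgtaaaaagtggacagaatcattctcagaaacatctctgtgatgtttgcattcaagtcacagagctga
The first was 83.6% identical to the commonest monomer of chromosome 2 and 90.6% identical to that of chromosome 20, and over the 67 boxes of its block the median identities were 85.4% and 89.5%. The second was 85.4% and 86.5% identical to them, with medians of 87.2% and 86.3% over its 12 boxes. The first block thus lay nearer in sequence to the chromosome 20 unit, and the second matched itself best at a shift of 342 bases, with 70.8% identity. The 53 windows of the main array without ERCC6L2-/- coverage had a control median of 106 reads and 1.53 boxes each on average, compared with 122 reads and 2.81 boxes in the 1902 windows covered in both.

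On chromosome 20 the loss of length was spread along the whole array. Control coverage formed 4 stretches and ERCC6L2-/- coverage 24, with a median length of 29120.5 bases (4679 to 108550) and gaps between them with a median of 30612 bases (3006 to 193869). The longest ERCC6L2-/- stretch was chr20:26436254-26544803 with a mean of 79.1 reads, and the longest control stretch was chr20:27519027-28445967 with a mean of 167 reads. Over 10 equal parts of the array, ERCC6L2-/- coverage took in from 10.4% of the eighth part to 76.3% of the fourth, while control coverage took in at least 76.3% of each part. At bases shared by the groups, the log2 ratio of depth lay between −0.83 and −0.93 in the second to the ninth part, where the covered share varied widely, and it was −1.06 in the first and −1.52 in the tenth.

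**Figure D3:**
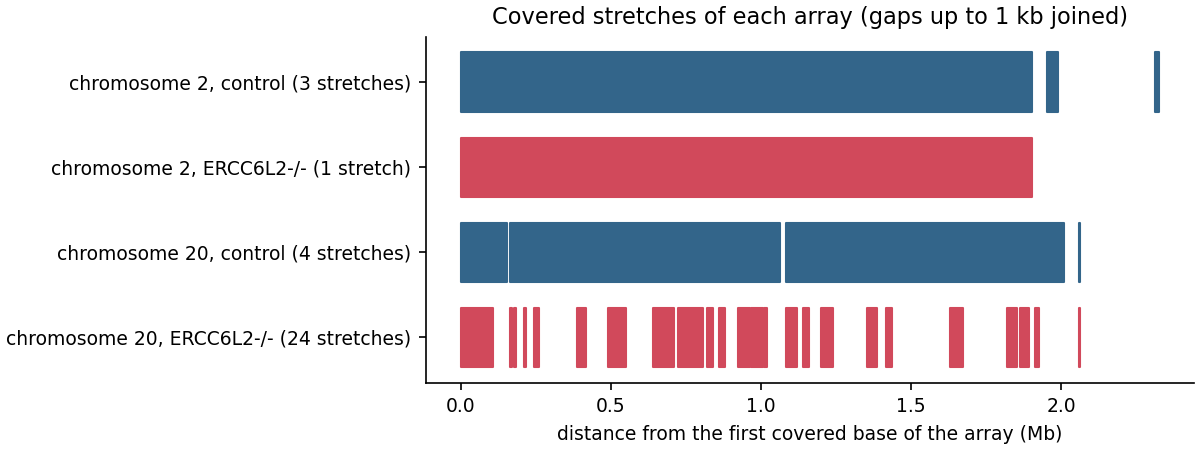
Covered stretches of control and ERCC6L2-/- cells along the main arrays, drawn against the distance from the start of each array, with stretches separated by up to 1 kb joined. On chromosome 20, 4 control stretches stand above 24 ERCC6L2-/- stretches, and on chromosome 2, 3 above 1.

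The 4 control stretches of chromosome 20 kept different shares of their length. The first, chr20:26436249-26590862, had 153717 control and 106768 ERCC6L2-/- covered bases, or 69.5%, with a log2 ratio of depth of −0.78. The second, chr20:26599439-27500496, kept 45.2%, with 898297 and 405668 covered bases and a log2 ratio of −0.95. The third, chr20:27519027-28445967, kept 29.1%, with 924364 and 269268 covered bases and a log2 ratio of −0.87. The fourth, chr20:28494091-28499333, was short and very deep, its means being 17817 and 6459 reads and its log2 ratio over shared bases −1.60. The stretch with the 680-base period kept the most of its length among the long ones. Among these long ones the share of length differed more than the depth. The fourth stretch holds an assembly gap of 100 bases.

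The windows of chromosome 20 that kept and lost coverage were alike in number of boxes, GC content and share of words found nowhere else. The spacing of boxes, which did differ, is given below. The 791 windows covered in both groups and the 1175 without ERCC6L2-/- coverage both held 2.49 boxes on average, their median GC content was 39.3% and 39.2%, and the median share of 50-base words found on no other sequence of the reference was 76.4% and 76.8%. Median control depth was 163 and 145 reads, but the deepest windows were among those covered in both, with 95th percentiles of 429 and 324 reads and highest values of 44823 and 637 reads. Per base, the control mean was 327 reads where both groups had coverage and 160 reads where only control had, and 184 and 160 reads without the windows above 1000 control reads. At the 44 edges of ERCC6L2-/- stretches where control coverage went on, the control median was 137 reads in the 1 kb inside and 74.2 reads in the 1 kb outside, and it was lower outside at 33 of the 44. Control depth was thus lower outside most edges, although control values outside ranged from 21.3 to 217 reads. The edges were set by ERCC6L2-/- coverage, and the depths of the groups kept nearly the same order (Spearman's rho of 0.98). A lower control depth outside is therefore partly built into how the edges were placed.

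A few windows held much of the signal. On chromosome 20, 13 windows had a control mean above 1000 reads and carried 25.6% of the control sum and 33.7% of the ERCC6L2-/- sum of the array. They formed a pair of runs, chr20:26600001-26608000 with means of 2949 and 1223 reads, and chr20:28494001-28499000 with means of 18273 and 6027 reads. The boxes there stood out by their strand. All 21 boxes of the first run and 6 of the 8 of the second were on the minus strand, which makes 27 of the 29 minus-strand boxes of the array. On chromosome 2 there were 2 such windows, with 1.47% of the control sum, and 1 of them lay in the control-only block whose boxes are on the minus strand. Without these windows the log2 ratio of depth on chromosome 20 was −0.86 in place of −1.12, with means of 184 and 101 reads, and that of the sum was −2.09. On chromosome 2 the same step left the depth ratio at −0.58.

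Coverage at the boxes followed the coverage of the arrays. On chromosome 2, 99.6% of the boxes carried control coverage and 97.5% ERCC6L2-/- coverage, at mean depths of 102 and 70.0 reads. On chromosome 20 it was 96.5% and 38.3%, at mean depths of 205 and 137 reads. Each mean was taken over the boxes covered in that group. Over the 1966 boxes of chromosome 20 covered in both groups the means were 288 and 137 reads. The second box sequence of chromosome 20, with G8C, carried control coverage at 96.4% of its sites and ERCC6L2-/- coverage at 34.4%, compared with 96.5% and 38.8% for the commonest box. The log2 ratio over sites covered in both was −1.08 for either sequence, so sites with either box had the same ratio of depth to this precision. The monomer around it had means of 199.97 and 120 reads, and the commonest monomer of the array 248 and 160 reads.

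Boxes with a close neighbour had lower depth. On chromosome 2, 1862 boxes, or 34.2%, had a neighbour less than 200 bases away, and their mean depth was 40.8 reads in control cells against 26.7 reads in ERCC6L2-/- cells. The 3474 boxes with the nearest neighbour at 300 to 400 bases had means of 133 and 92.7 reads. On chromosome 20 only 318 boxes, or 6.20%, had such a close neighbour, with means of 75.6 and 46.2 reads, compared with 183 and 116 reads for the 4728 at 300 to 400 bases. These means too were over the boxes covered in each group. Over boxes of chromosome 20 covered in both, they were 90.6 and 46.2 reads, compared with 222 and 116 reads. Closely spaced boxes were therefore lower in both groups and on both arrays, and they were more frequent on chromosome 2. Boxes per window showed little relation with depth, since Spearman's rho with the control mean was −0.14 on chromosome 2 and 0.18 on chromosome 20.

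Around the box the profile had the same shape in both groups. The profile used 5302 of the 5307 boxes of chromosome 2 covered in both, and 1924 of the 1966 of chromosome 20. On chromosome 2, coverage at the centre of the box was 99.9 reads in control cells against 69.1 reads in ERCC6L2-/- cells. It fell to 86.3 and 61.0 reads 15 bases after the box centre, and was highest 103 bases after the centre at 170 and 111 reads. Over the 1924 boxes of chromosome 20 the values at the box centre were 162 and 90.7 reads. The highest were 235 and 130 reads, also 103 bases after the centre. All 1966 boxes covered in both had means of 288 and 137 reads (log2 ratio −1.08). The profile of chromosome 20 thus left out much of the deepest signal. The maximum therefore lay beside the box and not over it. Over the boxes of the profile, the ratio of ERCC6L2-/- to control was nearly flat, from 0.652 to 0.708 on chromosome 2 and from 0.528 to 0.574 on chromosome 20.

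**Figure D4:**
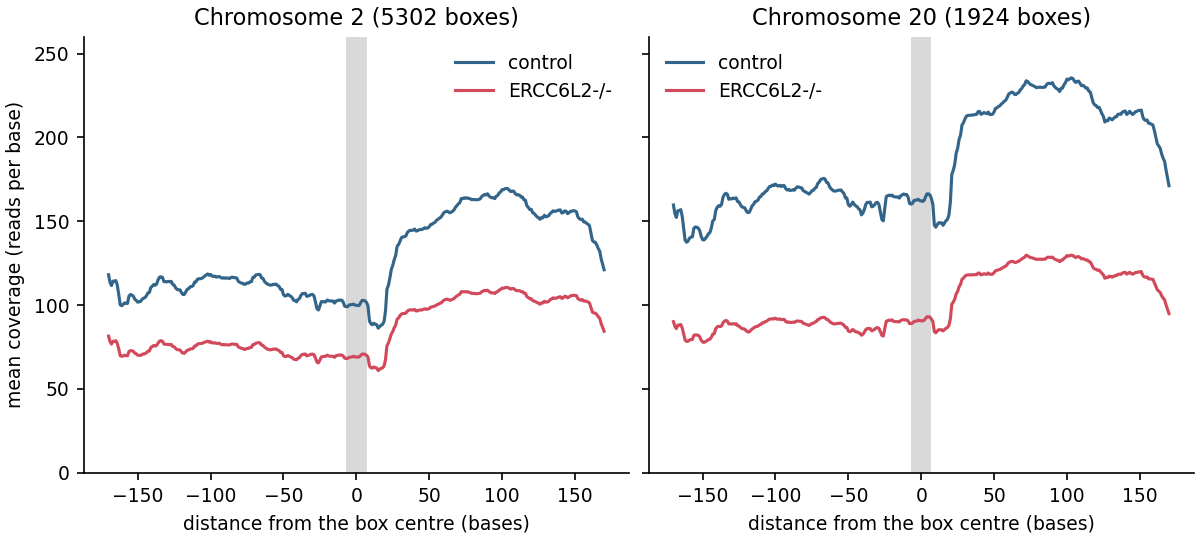
Mean reads per base against the distance in bases from the centre of the CENP-B box, for control and ERCC6L2-/- cells. The means are over 5302 of the 5307 boxes covered in both groups on chromosome 2 and 1924 of the 1966 on chromosome 20. On both arrays both groups peak 103 bases after the box centre.

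The separate site of chromosome 2, chr2:89811398-89841196, behaved in the opposite way. It had no covered base in control cells but 29370 of its 29799 bases had ERCC6L2-/- coverage, at a mean of 75.3, a median of 21 and a highest value of 2636 reads. It held no CENP-B box, and it was rich in GGAAT, counted on both strands, with 890 copies per 10 kb compared with 39.6 in the long stretch of the main array. GGAAT is the unit of another human satellite family, and at a shift of 171 bases this sequence was 30.3% identical to itself, compared with 55.9% in the long stretch. The nearest genes were an unprocessed pseudogene, ENSG00000283659, 128194 bases before it, and IGKV2D-40, an immunoglobulin κ variable gene, 10595 bases after it. To show the repeat, 60 bases around the highest value, chr2:89839622-89839681 on the plus strand, are given with GGAAT in capitals.
Site covered only in ERCC6L2-/- cells: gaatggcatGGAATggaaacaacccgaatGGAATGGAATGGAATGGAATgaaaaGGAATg
Here 96.3% of the 50-base words occurred on no other sequence of the reference and 93.9% only once in it. Whether control reads fell on this site below the limit for a called region cannot be told from these values.

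The long arm was searched for boxes from chr2:104513102 onwards, since the remnant of the ancestral centromere lies there. This found 40 boxes in 26 clusters, and the largest cluster had 8 boxes at chr2:132237426-132243046, inside the protein-coding gene ANKRD30BL on chromosome 2, where it overlapped 0 annotated exons and so was intronic. Its boxes were as dense as 14.2 per 10 kb, and the sequence was 53.8% identical to itself at a shift of 171 bases. The first of its monomers, at chr2:132237348-132237518 on the plus strand, is shown with the box in capitals, since it has the commonest box.
Long-arm site: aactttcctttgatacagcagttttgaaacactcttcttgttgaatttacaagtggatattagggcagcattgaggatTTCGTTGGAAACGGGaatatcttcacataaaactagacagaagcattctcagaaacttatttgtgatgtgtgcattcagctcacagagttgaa
It was 82.5% identical to the commonest monomer of the chromosome 2 array and 86.0% identical to that of chromosome 20. Over the 8 boxes of the cluster the median identities were 83.5% and 82.8%, so the cluster as a whole lay about equally near to both. Between positions 131000000 and 133000000, 13 of 16 boxes had the commonest sequence, yet no base there was listed in either group. A box of the sequence that was covered at nearly all of its sites in the main array was therefore without listed coverage at this site in both groups.

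The arrays differed in how much of their sequence is found elsewhere, and since the read length is not given in the sources used here, what this means for the placement of reads is unknown. On chromosome 2, 30.6% of the 50-base words of the main array were found on no other sequence, and 64.7% were also found on unlocalized scaffolds assigned to chromosome 2, 32.8% on chromosome 20 and 16.5% on chromosome 9. On chromosome 20, 76.4% were found nowhere else, and 13.5% were also found on chromosome 2. With words of 150 bases the private shares rose to 76.3% and 99.5%. Bases that start a private 50-base word had a log2 ratio of depth of −0.64 on chromosome 2, compared with −0.56 at shared ones, and of −1.12 on chromosome 20, compared with −1.13. The contrast between the arrays was thus also present at bases whose words occur on no other sequence. Such words can still repeat within their own array. The 50-base words of the arrays had a median of 245 and 515 copies on their own chromosome. Only 8.66% and 3.57% of them occurred once in the reference, and there the log2 ratios of depth were −0.72 and −1.42. The windows above 1000 control reads were kept in all these ratios. On chromosome 20 the control mean over shared bases was 488 reads at such single words, compared with 327 reads over the array. The part that reads placed on several copies had in these values was not tested further.

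Compared with the other 19 chromosomes with coverage, chromosome 2 kept more of its length than most and chromosome 20 was near the middle. The log2 ratio of covered length was −0.05 for the main array of chromosome 2, −0.03 with the site covered only in ERCC6L2-/- cells, and −1.33 for chromosome 20, with a median of −1.27 and a range from −5.51 to −0.01 over the others. Chromosomes 7, 11 and 12 had higher ratios of length, between −0.02 and −0.01. For the depth over bases covered in both groups, −0.58 on chromosome 2 lay next to the median of −0.57, and −1.12 on chromosome 20 lay towards the low end of the range from −1.64 to −0.24. Chromosomes 4 and 9, another pair with related repeats, also differed from each other, with 62.5% and 99.9% of their windows low, log2 ratios of length of −1.38 and −4.47 and log2 ratios of depth of −0.24 and −1.30. Scaling to total coverage moves the depth ratios of all chromosomes by the same amount and leaves their order as it is.

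**Figure D5:**
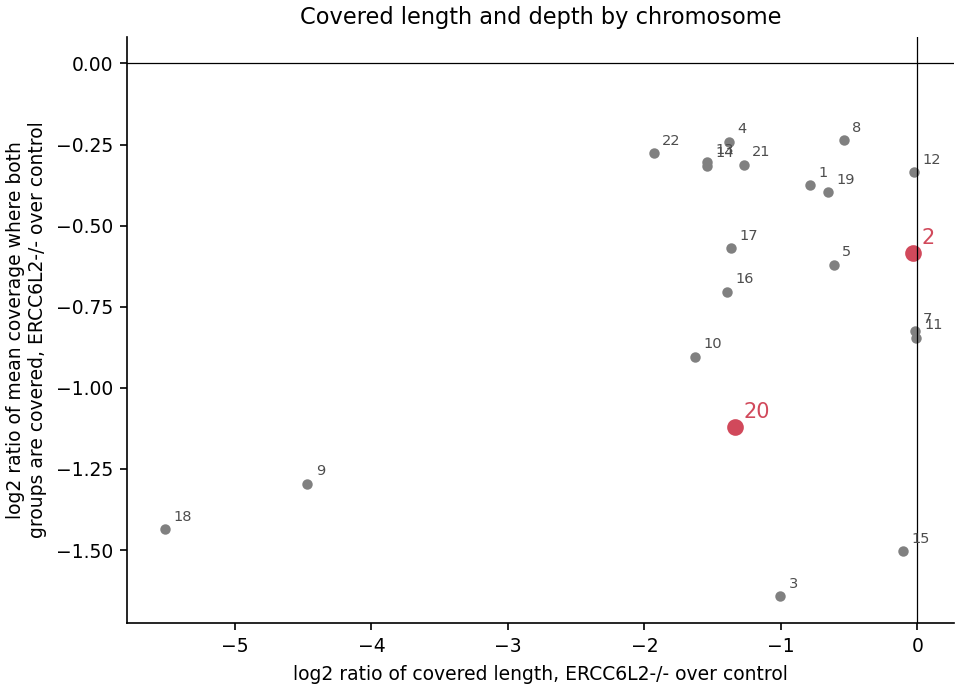
Log2 ratio of ERCC6L2-/- to control for each chromosome with coverage, for covered length and for depth over bases covered in both groups, with chromosomes 2 and 20 marked. Chromosome 2 lies near 0 for length (−0.03) and in the middle for depth (−0.58), and chromosome 20 lies at −1.33 and −1.12. Without its windows above 1000 control reads the depth ratio of chromosome 20 is −0.86.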

How the data were processed

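CENP-B ChIP-seq was analysed from 3 control and 3 ERCC6L2-/- immunoprecipitates of U2OS cells. The 2 input libraries were not used here. Per the submitters' processing notes, the authors used FastQC, Trim Galore, Bowtie2 and MACS2, with GRCh38 (hg38), and merged the peaks of the replicates with MSPC. The paper adds that peaks passed a stringent filter on the false discovery rate before the merging, so covered length depends on that filter. Versions, duplicate removal, scaling and the placement of reads that fit several sites are not given in the sources used here. The deposited values are coverage, 1 pooled whole number of reads per base and group over listed intervals, with no value per replicate. The paper describes its tracks as averages over the triplicates, and both groups were assumed to be made alike.

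Intervals were expanded to bases with Python 3.11.15, NumPy 2.4.6, pandas 2.3.3 and Numba 0.67.0, and unlisted bases were set to 0. Window ratios used a pseudocount of 1 read. Sequences were read with pysam 0.24.0 and samtools 1.23.1, word copies were counted on both strands of the reference, monomers were aligned with gaps, rank correlations used SciPy 1.17.1, and figures were drawn with matplotlib 3.10.9. Arrays were member windows joined across gaps of up to 1 Mb, and covered stretches were joined across up to 1 kb. The regions named were these arrays and stretches, every other cluster of members, the longest stretch of each group, the 3 windows with the highest control mean, the 2 lowest and 2 highest ratios, and the 5 commonest boxes, of which the text gives a part. The runs of windows above 1000 reads, the strand of boxes and the word length of 150 bases were chosen after the values were seen. Members and lists were chosen with earlier results of these data known. The reading of intervals, the coverage ratios, the period search, the alignment and the word matching were tested on simulated data. The window calling was not. Alternatives were 2 scalings, minimums of 10 and 50 reads, a cap at the 99th percentile, words, a pseudocount of 10, windows of 10 kb and windows covered over 50% in both groups.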

Additional observations from a re-analysis of the deposited data

How the results depend on the processing

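No paired analysis was possible because each group had 1 pooled column, and leaving out a replicate could give no value for the same reason. Values are log2 ratios as above. Shifts were judged against 95% Wilson intervals of base sums, which are very narrow and cover counting error only, so most settings counted as a move. For chromosome 2, scaling to totals gave 0.48 for the sum and 0.53 for the depth, and scaling to the other sequences gave 0.016 and 0.066, so all 4 turned from negative to positive. A minimum of 10 reads, of 50 reads and the cap at 760 reads gave sums of −0.64, −0.71 and −0.60 and depths of −0.58, −0.55 and −0.56. Private words of 50 bases and of 150 bases, the latter added after seeing the data, gave sums of −0.74 and −0.67, depths of −0.64 and −0.60 and lengths of −0.12 and −0.064. The minimums gave lengths of −0.13 and −0.36. Leaving out the windows above 1000 control reads, also added after seeing the data, gave a sum of −0.62 and a depth of −0.58. The 81 low windows became 53 under either scaling, 354 with 50 reads, 206 with 50-base words, 8 of 199 windows of 10 kb, and 28 of 1902 windows covered over 50% in both.

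For chromosome 20, scaling to totals gave −0.80 for the sum and 0.00 (−0.0025) for the depth, and scaling to the other sequences −1.30 and −0.50. The minimums of 10 and 50 reads gave sums of −1.92 and −1.96, lengths of −1.41 and −1.65 and depths of −1.12 and −1.12. The cap gave −1.97 for the sum and −0.78 for the depth, 50-base words −1.91, −1.34 for length and −1.12 for depth, and the windows below 1000 reads −2.09, −1.35 and −0.86. The 1346 low windows became 141 of 203 at 10 kb and 149 of 791 covered in both. The cause of these moves was not tested, apart from the scalings, each of which multiplies the ERCC6L2-/- values of an array by 1 factor and leaves covered length as it is. The count of windows with a ratio over 2 stayed at 0 in both arrays under every setting run.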
